A study of Mus musculus with 47 samples.

Results

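The autophagy machinery and receptor genes examined here are 40 mouse genes, taken by Ensembl identifier from both deposited count tables. All 40 were present, among 33139 genes in the brainstem table and 31751 in the hippocampus table, and all 40 passed the filter on low counts in each region. RNA was sequenced from 23 brainstem and 24 hippocampus samples of male C57BL/6 mice aged 12 months, which received a standard diet (SD) or a high fat diet (HFD) from the age of 5 weeks. WT mice carried no transgene, and TG mice were homozygous for a human transgene under the Thy1 promoter, which drives expression in neurons of the central nervous system. The groups WT-SD, WT-HFD, TG-SD and TG-HFD held 6 mice each, except WT-SD of brainstem, which held 5. WT mice came from the same outcross but were kept as a parallel colony, so genotype and colony cannot be told apart. Brainstem was the posterior medulla and hippocampus was taken whole, so every value is a bulk level over all cell types, in which fewer cells of a type and less RNA per cell cannot be told apart.

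Macroautophagy encloses cytoplasm, protein aggregates or organelles in a double membrane and delivers them to the lysosome. The ULK1 kinase complex starts the process, the class III PI3-kinase complexes mark the forming membrane with PI3P, and ATG9 vesicles with ATG2 lipid transfer proteins and WIPI proteins supply and recognise it. Ubiquitin-like conjugation systems then attach proteins of the ATG8 family (LC3 and GABARAP) to the membrane, where cargo receptors bind them. Neurons depend on this route to clear damaged mitochondria and aggregation-prone proteins.

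Total counts per library lay between 10020784 and 15078812 in brainstem and between 11945971 and 17328447 in hippocampus. Markers of the labelled tissue were present. The 4 medulla markers summed to between 26 and 93.9 normalised CPM (counts scaled to a common library total) in brainstem and to at most 0.174 CPM in hippocampus, and the 4 hippocampus markers to between 469 and 694 CPM in hippocampus against 102 to 161 CPM in brainstem. The least abundant member, Atg4a, had a mean of 80.7 counts in brainstem and 53 in hippocampus.

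RefSeq promoter windows on GRCm38.p6 (250 bases before to 50 bases after a start) were held for 33 of the 40 genes. Stretches are shown for members from both ends of the region comparison and for 4 of the 5 members holding CACGTG, the core of sites bound by basic helix-loop-helix factors such as TFEB, a regulator of lysosomal and autophagy genes. Those of Atg9a, which ranked between Atg101 and Ulk2 in that comparison, and of Atg14, which holds CACGTG, lay wholly in exons of the GENCODE annotation and are not printed. The letters GGGCGG, or CCGCCC on the other strand, were in the windows of 22 of 33 members (66.7%) and of 38.2% of 27025 genes with a window. The palindrome CACGTG was in 5 of 33 (15.2%), namely Atg3, Atg5, Atg7, Atg14 and Bnip3, and in 8.09% of all genes. Member windows had a median GC content of 59.3%, against 52.7% over all windows. The 27025 genes also include ones not tested here, whereas all members were tested. The part of either in these shares was not tested. The 120 bases before the start follow for Optn (chr2:5064118-5064237, minus strand), Fundc1 (chrX:17572008-17572127, minus strand), Atg101 (chr15:101284181-101284300, plus strand) and Ulk2 (chr11:61855093-61855212, minus strand), with capitals for GGGCGG or CCGCCC. In the GENCODE annotation of GRCm38 the printed stretches of Optn and Ulk2 lie upstream of the gene and that of Fundc1 lies in an intron. The last 29 bases of the stretch of Atg101 lie in an exon.
Optn: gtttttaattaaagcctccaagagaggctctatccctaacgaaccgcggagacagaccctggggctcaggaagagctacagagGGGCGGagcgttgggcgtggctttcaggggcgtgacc
Fundc1: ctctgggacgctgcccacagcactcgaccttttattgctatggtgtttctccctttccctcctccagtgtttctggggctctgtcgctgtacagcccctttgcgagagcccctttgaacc
Atg101: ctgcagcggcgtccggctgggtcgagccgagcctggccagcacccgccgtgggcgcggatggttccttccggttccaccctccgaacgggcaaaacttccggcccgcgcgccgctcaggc
Ulk2: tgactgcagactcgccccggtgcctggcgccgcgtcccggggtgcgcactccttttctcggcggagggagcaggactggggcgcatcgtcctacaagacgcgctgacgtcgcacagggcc

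The stretches with CACGTG, here the only letters in capitals, came from Atg7 (chr6:114670910-114670969, plus strand, in an intron), Bnip3 (chr7:138909609-138909668, minus strand), Atg5 (chr10:44268271-44268330, plus strand) and Atg3 (chr16:45158704-45158763, plus strand). The last 3 lie upstream of their genes. Over the whole windows Atg3 held 2 copies, and Atg5, Atg7, Atg14 and Bnip3 held 1 each.
Atg7: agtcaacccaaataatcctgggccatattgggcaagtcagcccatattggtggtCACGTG
Bnip3: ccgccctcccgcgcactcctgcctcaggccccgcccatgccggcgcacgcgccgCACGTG
Atg5: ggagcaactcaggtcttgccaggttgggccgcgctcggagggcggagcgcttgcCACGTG
Atg3: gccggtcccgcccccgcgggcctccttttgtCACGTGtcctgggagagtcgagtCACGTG
The 5 genes with this motif did not share a direction between regions. On the log2 scale of hippocampus over brainstem, Bnip3 was at -0.51, Atg3 at -0.43, Atg5 at -0.38, Atg7 at 0.10 and Atg14 at 0.50.

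Per length, the ATG8 family was the most abundant group. Summed over its 5 genes, CPM per kilobase of exon (RPKM) lay between 480 and 571 in brainstem (median 517) and between 406 and 471 in hippocampus (median 441), which was 51.6% and 49.9% of the sum over the 40 genes. Gabarapl1, a GABARAP-like ATG8 protein, ranked highest, with 239 ± 12.7 RPKM in brainstem (SD, n = 23) and 231 ± 9.57 in hippocampus (SD, n = 24). Sqstm1, which encodes the ubiquitin-binding receptor p62, followed with 110 ± 6.97 and 103 ± 2.91 RPKM. Gabarapl2 (89.1 and 60.4 RPKM), Map1lc3a (81.6 and 61.2) and Gabarap (70.7 and 59.5) came next, ahead of the mitochondrial receptor Bnip3l (54.1 and 40.7). The machinery genes were lower. Sums over the 5 ULK1 complex genes had medians of 52.6 RPKM in brainstem and 65.6 in hippocampus, and those over the 6 class III PI3-kinase genes 35 and 40.7. The ATG4 proteases Atg4a (2.38 and 1.40 RPKM) and Atg4d (2.31 and 1.71) were the lowest members.

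**Figure D1:**
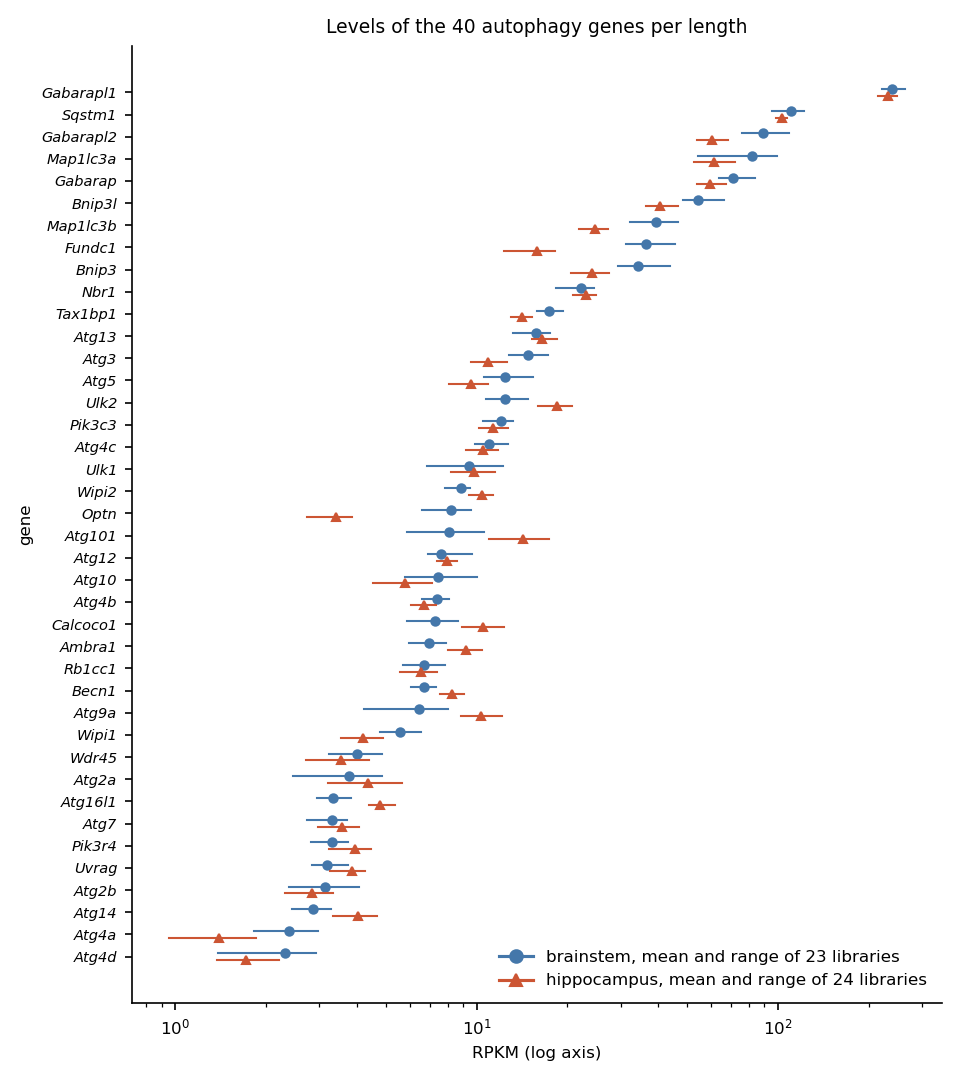
RPKM of each of the 40 genes on a log axis, as the mean (point) and range (line) of 23 brainstem libraries (blue circles) and 24 hippocampus libraries (orange triangles). Gabarapl1 stands at the top at 239 and 231 RPKM, and the ranges of Optn and Fundc1 lie apart between regions.

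The spread between mice of a group was small for most members. The coefficient of variation within a group had a median of 7.84% in brainstem and 6.41% in hippocampus. Over genes and groups it ran from 1.41% to 22.6% in brainstem and from 1.86% to 20.1% in hippocampus. Averaged over groups, it was lowest for Becn1 in brainstem and Sqstm1 in hippocampus, and highest for Atg2a in brainstem and Atg4a in hippocampus.

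The members were first compared between the regions, over all 47 libraries. The study describes both regions as taken from 6 mice of each group, but the labels do not say which libraries share a mouse. All were therefore treated as separate samples, and the p-values between regions do not account for shared mice. A gene was called when its p from edgeR's quasi-likelihood test, adjusted by Benjamini-Hochberg, was no higher than 0.05 and its log2 fold change was no smaller than 0.3 in either direction. By this rule 22 of the 40 differed, with 8 higher in hippocampus (20%) and 14 lower (35%). Over all 13993 genes tested, 29.8% were called higher and 31.6% lower, so the share of members called did not stand out from that of genes in general. An absolute log2 fold change of 1 was passed by 2 members (5%), Optn and Fundc1, against 19.9% of all genes. The median absolute log2 fold change was 0.34 over members and 0.41 over all genes. All hippocampus libraries lay above all brainstem libraries for 8 members (20%, against 17.9% of all genes) and below them for 8 others (20%, against 17.5%). The counts are given by role in what follows. None of the called genes of the ULK1 and class III PI3-kinase complexes was lower in hippocampus, and none of those of the ATG8 family or the mitochondrial receptors was higher.

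**Figure D2:**
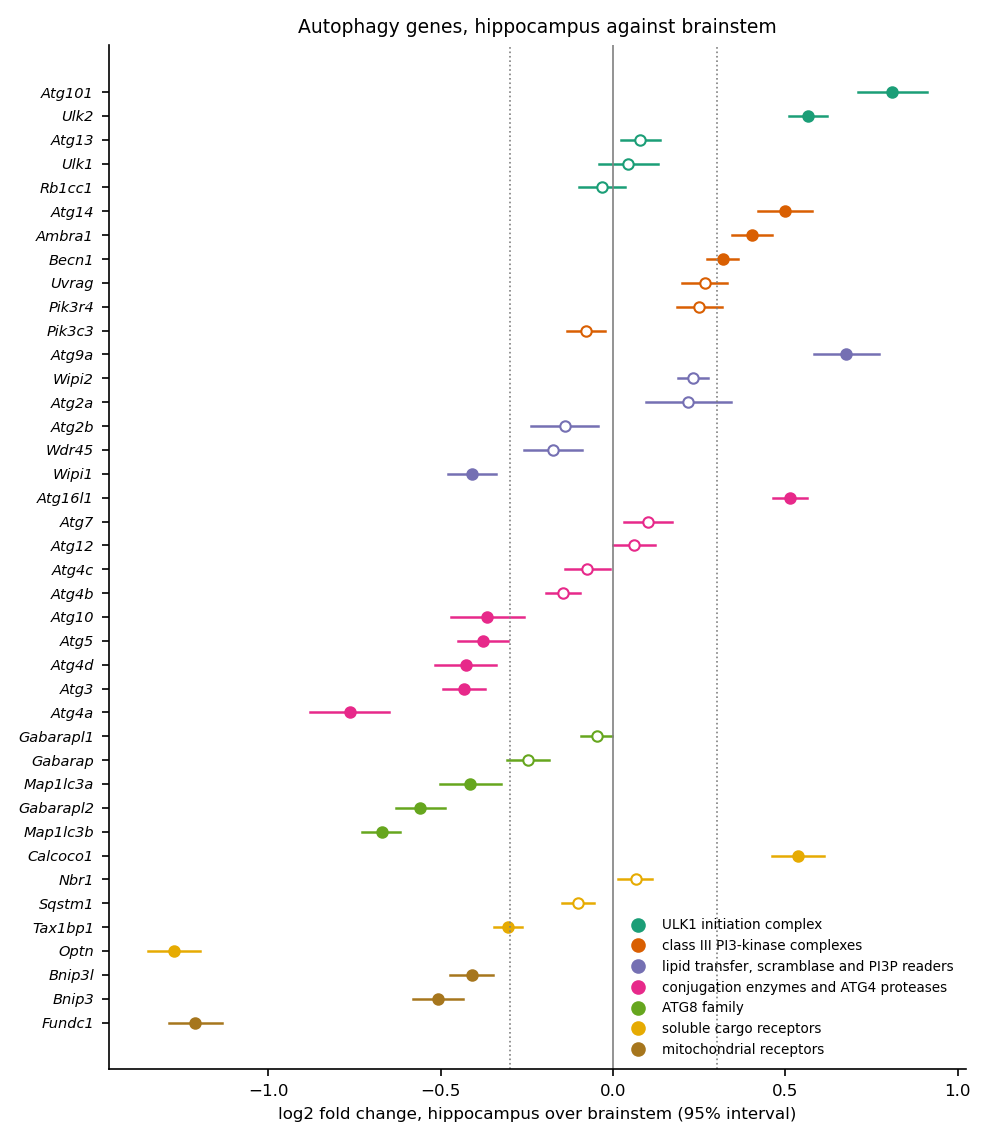
Log2 fold change of hippocampus over brainstem (x axis) for the 40 genes (y axis), grouped and coloured by role, with the 95% interval as a line. Filled points were called, open points were not, and dotted lines mark ±0.3; Optn (-1.28) and Fundc1 (-1.21) lie at the left end and Atg101 (0.81) at the right.

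Among cargo receptors, Optn differed most. It encodes optineurin, a ubiquitin-binding receptor for damaged mitochondria and aggregates. Its level was 24.8, 30.8 and 35.8 CPM (lowest, median and highest of 23) in brainstem and 10.3, 12.8 and 14.4 CPM (of 24) in hippocampus. No hippocampus library reached the lowest brainstem library, and the level was 2.42-fold higher in brainstem (log2 fold change -1.28, SE 0.0374, adjusted p = 1.17e-33, edgeR). Within each genotype and diet the gap was alike, from 32.4 ± 2.71 CPM (SD, n = 5) against 12.9 ± 0.833 (SD, n = 6) in WT-SD to 30.1 ± 1.89 against 12.8 ± 1.46 (SD, n = 6 each) in TG-HFD. Tax1bp1, another ubiquitin-binding receptor, was lower in hippocampus by less (log2 fold change -0.31, SE 0.0202, adjusted p = 3.67e-19), close to the threshold of 0.3. Leaving out any 1 of 8 libraries (brainstem TG-HFD replicate 3 and WT-HFD replicates 7 and 8, and hippocampus TG-SD replicate 7, TG-HFD replicate 8, WT-SD replicate 3 and WT-HFD replicates 5 and 7) moved it just inside that threshold, to between -0.2996 and -0.2960, and ended the call. Calcoco1, a receptor for the endoplasmic reticulum and Golgi, was higher, at 33.6, 41.6 and 49.7 CPM in brainstem against 51.2, 60.6 and 70.5 in hippocampus (log2 fold change 0.54, SE 0.0375, adjusted p = 3.14e-18). Its ranges did not overlap either. Sqstm1 (-0.10) and Nbr1 (0.07), the soluble receptors with the highest RPKM in both regions, stayed below the fold threshold, with Sqstm1 at a median of 368 CPM in brainstem and 346 in hippocampus.

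All 3 mitochondrial receptors were lower in hippocampus without overlap. Fundc1, an outer membrane protein that binds LC3 under hypoxia, lay at 73.4, 82.5 and 107 CPM in brainstem and at 29, 36.6 and 42.9 CPM in hippocampus. This was 2.32-fold higher in brainstem (log2 fold change -1.21, SE 0.0386, adjusted p = 4.28e-32). Bnip3 lay between 66.8 and 99.4 CPM in brainstem and between 46.5 and 62.2 in hippocampus (-0.51, SE 0.0363), and Bnip3l, also known as NIX, between 187 and 255 and between 141 and 180 CPM (-0.41, SE 0.031). Summed per length, the 3 receptors had a median of 121 RPKM in brainstem and 80.7 in hippocampus.

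The 5 genes of the ATG8 family all had a negative fold change, and 3 of them were called. Map1lc3b, which encodes the LC3 protein most used as a marker of autophagosomes, lay at 243, 290 and 349 CPM in brainstem and at 164, 187 and 205 CPM in hippocampus (log2 fold change -0.67, SE 0.0277, adjusted p = 2.03e-27). Gabarapl2, also known as GATE-16, lay at 176, 207 and 254 CPM and at 125, 140 and 159 CPM (-0.56, SE 0.0349, adjusted p = 4.46e-20). Both were without overlap between regions. Map1lc3a was lower by 0.41 on the log2 scale (SE 0.0435) with overlapping libraries. Gabarap (-0.25, SE 0.0304) and Gabarapl1 (-0.05, SE 0.0225) passed the adjusted p but not the fold threshold, so the most abundant ATG8 gene was the one that differed least between regions.

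Of the 5 ULK1 complex genes, 2 were called higher in hippocampus and 0 lower, with a median log2 fold change of 0.08. Atg101, a small partner of ATG13 in the ULK1 complex, had the highest fold change of the members, at 9.38, 13.1 and 17 CPM in brainstem and 17.5, 23.1 and 27.8 CPM in hippocampus (log2 fold change 0.81, SE 0.0502, adjusted p = 3.17e-20). Its ranges were adjacent but did not overlap. Ulk2, one of the 2 initiating kinases, lay at 63.7, 74 and 88.4 CPM and at 95.4, 110 and 124 CPM (0.57, SE 0.0272). Its relative Ulk1 did not differ beyond the spread (0.04, SE 0.0419, adjusted p = 0.318), and neither did the scaffold Rb1cc1 (-0.03, SE 0.0333, adjusted p = 0.348).

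Of the class III PI3-kinase genes, Atg14 (0.50, SE 0.0392), Ambra1 (0.40, SE 0.029) and Becn1 (0.32, SE 0.0224) were called higher in hippocampus, each without overlap. Becn1, close to the threshold of 0.3, was not called with TG-SD or TG-HFD libraries alone. Atg14 directs the kinase to the autophagosome, whereas Uvrag marks the endosomal form of the complex. Uvrag (0.27, SE 0.0324) and the regulatory subunit Pik3r4 (0.25, SE 0.0327) lay in the same direction below the threshold, and the catalytic subunit Pik3c3 at -0.08. Atg9a, the lipid scramblase of the seed vesicles, was higher in hippocampus, at 24.4, 37.3 and 46.4 CPM in brainstem and 51.2, 58.4 and 69.7 CPM in hippocampus (0.68, SE 0.0469, adjusted p = 2.26e-18). The PI3P readers differed in direction, with Wipi1 lower (-0.41, SE 0.0351) and Wipi2 at 0.23 (SE 0.0212), the latter not called.

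The conjugation genes were mostly lower or little different. Atg16l1, which places the ATG12-ATG5 conjugate on the membrane, was the one called higher, at 28.3, 31.9 and 37 CPM in brainstem and 42.4, 45.8 and 51.4 CPM in hippocampus (0.51, SE 0.0245, adjusted p = 1.08e-24). Its partner Atg5 was lower (-0.38, SE 0.0359), and the third part of the conjugate, Atg12, was at 0.06. Atg3, which joins LC3 to lipid, was lower without overlap, at 40.2 to 54.2 CPM in brainstem and 30.1 to 39.9 CPM in hippocampus (-0.43, SE 0.0304), and Atg10, which joins ATG12 to ATG5, was lower with overlap (-0.37, SE 0.0525). The 4 ATG4 proteases, which trim ATG8 proteins, did not move alike. Atg4a (-0.76, SE 0.0573) and Atg4d (-0.43, SE 0.0444) were called lower, while Atg4b (-0.15), the most abundant of them in CPM, and Atg4c (-0.08) were not called.

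**Figure D3:**
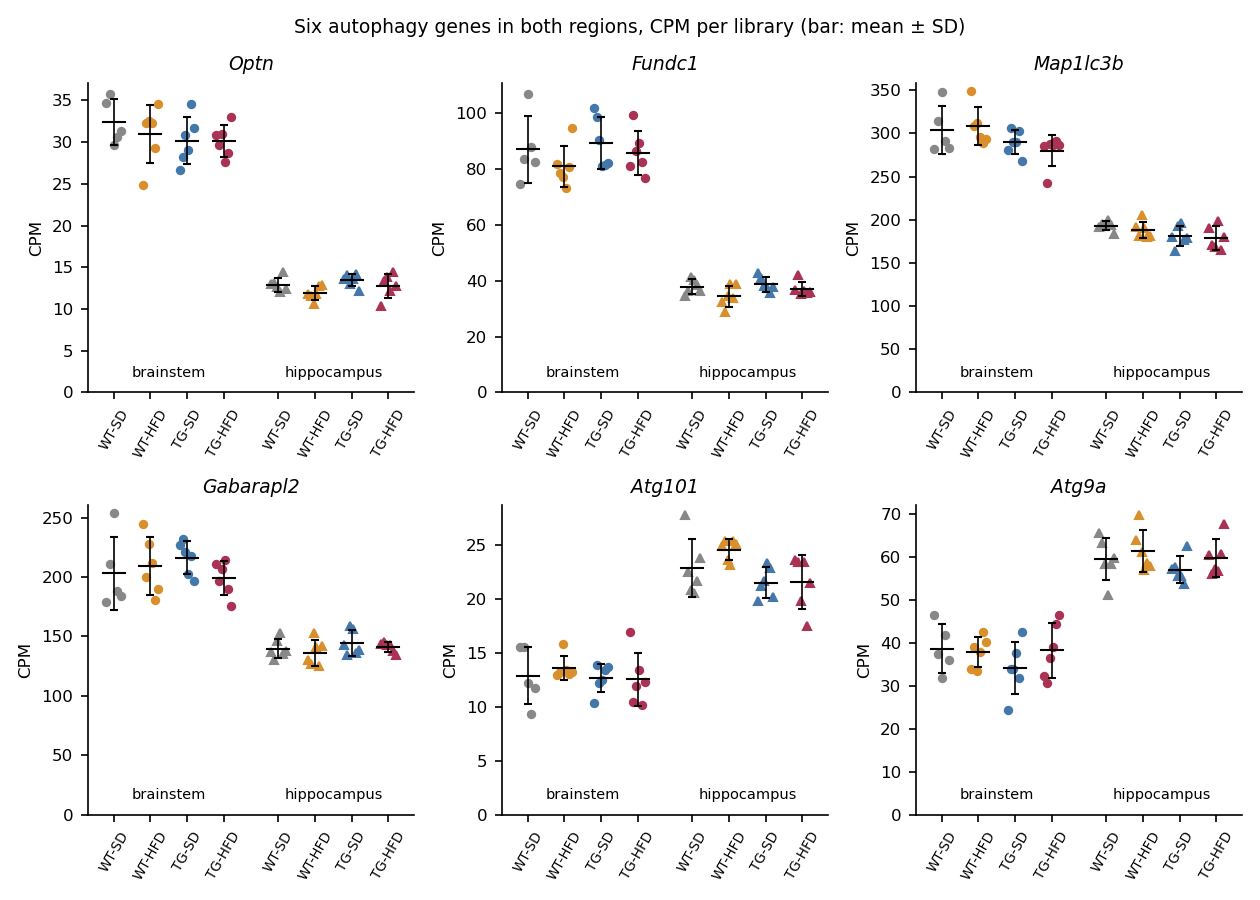
CPM of Optn, Fundc1, Map1lc3b, Gabarapl2, Atg101 and Atg9a in each library, by region (circles brainstem, triangles hippocampus) and group (colour), with the group mean and SD as bars. In each panel every hippocampus library lies on 1 side of every brainstem library, and the 4 groups of a region overlap.

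The regions differed in cell markers along with these genes. The 6 oligodendrocyte markers summed to between 12012.7 and 20485.8 CPM in brainstem and between 2953.2 and 4601.3 CPM in hippocampus, and the 5 astrocyte markers had medians of 2874.9 and 2107.3 CPM. The 3 glutamatergic neuron markers (Slc17a7, Slc17a6 and Camk2a) summed to between 331 and 383 CPM in brainstem and between 4425.9 and 5440.3 CPM in hippocampus. The 4 inhibitory neuron markers (Gad1, Gad2, Slc32a1 and Slc6a5) lay the other way, between 636 and 1036.5 CPM and between 467 and 593 CPM. Values per gene are not given, so these sums do not measure the amount of either neuron type. The 5 general neuron markers had medians of 4274.0 and 4531.7 CPM. Choroid plexus markers (3 genes) ran from 9.03 to 2889.7 CPM over brainstem libraries and from 35.6 to 304 CPM over hippocampus libraries. Markers of microglia (medians 192 and 243 CPM) and oligodendrocyte precursors (79.3 and 102 CPM) were higher in hippocampus, and those of endothelium (198 and 126 CPM) and ependyma (17.7 and 8.02 CPM) in brainstem. Of all these markers, 1 of the inhibitory neuron list had a mean under 0.1 CPM, in hippocampus. Their part in the differences of the autophagy genes was not tested, and region and anything else that differed between the 2 sets of libraries cannot be told apart. GC content of transcripts had a median of 52.1% over the 8 members called higher (47.5% to 57.7%) and 46.4% over the 14 called lower (41.3% to 61.1%), with overlap. For all genes called the medians were 51.5% and 49.1%. With a correction for GC content 20 of the 22 members kept their call, all but Atg10 and Tax1bp1, and all 22 kept their sign.

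The effect of genotype was examined next, under each diet and in each region. On SD in brainstem 0 of 40 members were called, against 0.142% of 13340 genes, and 2 members (5%) had an unadjusted p of at most 0.05, against 10.5% of all genes. On HFD in brainstem 0 were called (all genes 0.0525%) and 3 reached that p (all genes 5.59%). In hippocampus 0 were called on SD (all genes 0.0904%), with 4 at that p (all genes 9.08%), and 0 on HFD (all genes 0.226%), with 3 at that p (all genes 11.3%). DESeq2 with the same surrogate variables also called 0 in all 4 (all genes 0.03%, 0.0525%, 0.0226% and 0.219%). It put 2, 3, 3 and 3 members at that unadjusted p (all genes 8.32%, 3.88%, 7.29% and 9.45%). On SD in brainstem they ran from -0.12 to 0.14, and the 95% intervals of 39 of 40 members lay within ±0.3 on the log2 scale. On HFD in hippocampus, the widest of the 4, they ran from -0.16 to 0.21, with the intervals of 34 members within ±0.3. TG and WT libraries did not overlap in CPM for 1 member in brainstem on SD (all genes 0.532%), 1 on HFD (all genes 0.682%), and 0 in hippocampus on SD (all genes 0.234%) and on HFD (all genes 4.24%).

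The member with the lowest p on SD in brainstem was Becn1, which encodes Beclin 1, the core of the class III PI3-kinase complexes. Its CPM in WT-SD lay between 42.8 and 47.1 (n = 5), and in TG-SD at 48.1, 50.2 and 51.8 (lowest, median and highest of 6). The 2 groups did not overlap, and the difference was 1.10-fold (log2 fold change 0.14, SE 0.0445, adjusted p = 0.242, edgeR), not significant after adjustment. On HFD the same gene lay at 42.9, 45.5 and 47.7 CPM in WT and 45, 48.4 and 50.7 in TG, with overlap. In hippocampus its means were 58.5 ± 3.77 and 59.6 ± 2.69 CPM on SD (SD, n = 6 each). Ulk1 was next on SD in brainstem, at 65.1 ± 10.3 CPM in WT-SD (SD, n = 5) and 55.2 ± 8.42 in TG-SD (SD, n = 6), with overlap (log2 fold change -0.12, SE 0.0565, adjusted p = 0.435).

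On HFD in brainstem Pik3r4 (-0.19, SE 0.06, adjusted p = 0.667) and Atg5 (-0.19, SE 0.0754, adjusted p = 0.826) had the lowest p, and both groups overlapped for each. Pik3r4 had means of 31.2 ± 2.34 CPM in TG-HFD and 33.1 ± 2.74 in WT-HFD (SD, n = 6 each). Atg4d lay at 10, 16.2 and 17.6 CPM in TG-HFD and at 18.4, 20.4 and 21.2 CPM in WT-HFD. It was the 1 member without overlap here, with a fold change of -0.17 (SE 0.0872, adjusted p = 0.894). With 0 surrogate variables it was at -0.37 (SE 0.0931, adjusted p = 0.115), and without TG-HFD replicate 3, its lowest library, at -0.18 with 4 of them (adjusted p = 0.871). In hippocampus Map1lc3b (-0.08, SE 0.0343, adjusted p = 0.462) and Atg2a (0.12, SE 0.0551, adjusted p = 0.488) came first on SD. That of Atg2a was at 0.06 without WT-HFD replicate 8, which shares the model, at 0.08 without TG-SD replicate 5 or without WT-SD replicate 6, and at 0.02 with 0 surrogate variables. The values of Map1lc3b were 184, 193 and 200 CPM in WT-SD and 164, 179 and 196 CPM in TG-SD, with overlap. On HFD Atg14 had a mean of 18.8 ± 1.25 CPM in TG-HFD and 17.4 ± 1.92 in WT-HFD (SD, n = 6 each; log2 fold change 0.21, SE 0.0939, adjusted p = 0.372). Its fold change on SD was 0.16 (SE 0.0726, adjusted p = 0.497). Bnip3l had a fold change of -0.11 on HFD (SE 0.0419, adjusted p = 0.261), although its CPM was 159 ± 6.32 in TG-HFD and 154 ± 10.3 in WT-HFD (SD, n = 6 each). The fold changes were adjusted for 4 surrogate variables in each region, which CPM is not.

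The number of surrogate variables changed which members were called in 1 comparison within a region. With 0 of them, HFD in hippocampus gave 2 called members, Atg4d (log2 fold change -0.36, SE 0.0825, adjusted p = 0.00741) and Atg2a (-0.31, SE 0.0935, adjusted p = 0.0388), where 3.88% of all genes were called, and Ulk1 passed the adjusted p at -0.20 (SE 0.0605, adjusted p = 0.04) but not the fold threshold. Atg4d lay at 11.9, 14.5 and 16 CPM in WT-HFD and at 10.3, 11.2 and 12.1 CPM in TG-HFD. Atg2a lay at 35.3, 37.9 and 43.6 CPM and at 28.1, 30.7 and 36 CPM. Both overlapped between groups. With 4 surrogate variables Atg4d was at -0.16 (SE 0.1, adjusted p = 0.57), Atg2a at 0.07 (SE 0.0707, adjusted p = 0.752) and Ulk1 at 0.01. These genes are GC-rich, with 55.9%, 59.2% and 58.1% GC in their transcripts against a median of 49.8% over tested genes. With 0 surrogate variables and a correction for GC content instead, they were at -0.25 (adjusted p = 0.0817), -0.09 (adjusted p = 0.691) and -0.01 (adjusted p = 0.951), and 0 members were called. In that fit Map1lc3a (61.1% GC) was at 0.24 (SE 0.0683, adjusted p = 0.0934, edgeR), against -0.05 without the correction. The part of GC content in these values was not tested.

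**Figure D4:**
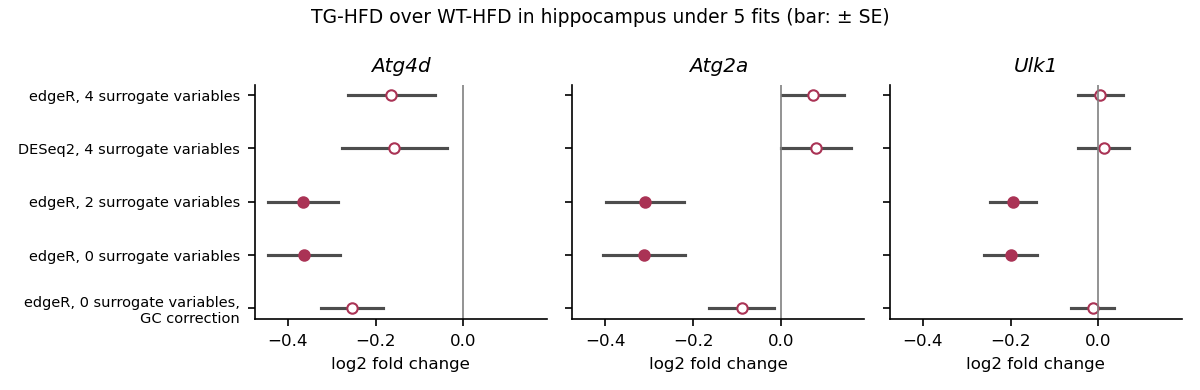
Log2 fold change (x axis) of TG-HFD over WT-HFD in hippocampus for Atg4d, Atg2a and Ulk1 under 5 fits (y axis), with the SE as bars and filled points for an adjusted p of at most 0.05. The 3 genes pass that threshold with 2 or 0 surrogate variables and without GC correction (0 surrogate variables: -0.36, -0.31 and -0.20), and not in the other 3 fits.

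The effect of HFD was then taken within each genotype. In WT mice 0 members and 0% of all genes were called in either region, with 2 members at an unadjusted p of at most 0.05 in brainstem (all genes 5.43%) and 2 in hippocampus (all genes 6.4%). In TG mice 0 members were called in brainstem (all genes 0.0075%) and in hippocampus (all genes 0%), with 5 and 1 members at that p (all genes 6.91% and 7.08%). DESeq2 called 0 members as well (all genes 0.0075% and 0.0226% in brainstem and hippocampus of WT mice, 0% and 0.0151% in those of TG mice). At that p it put 0 members in brainstem and 2 in hippocampus of WT mice (all genes 3.58% and 4.69%). In TG mice these were 3 and 1 (all genes 5.19% and 5.52%). HFD and SD libraries did not overlap in CPM for 1 member in WT brainstem (all genes 0.412%) and for 0 in WT hippocampus (all genes 0.482%), TG brainstem (all genes 0.157%) and TG hippocampus (all genes 0.0452%). Among WT brainstem values Atg4d stood out in CPM, at 15 to 17.5 in WT-SD (n = 5) and at 18.4, 20.4 and 21.2 (of 6) in WT-HFD. The groups did not overlap, but its fold change after adjustment for surrogate variables was 0.16 (SE 0.0774, adjusted p = 0.916). In hippocampus it was 12.2 ± 0.897 CPM in WT-SD and 14.4 ± 1.57 in WT-HFD (SD, n = 6 each), and in both regions WT-HFD held the highest mean of the 4 groups.

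Map1lc3a in WT brainstem had a fold change of -0.09 on HFD (SE 0.0424, adjusted p = 0.896), while its mean CPM was 99 ± 7.21 in WT-SD (SD, n = 5) and 106 ± 9.94 in WT-HFD (SD, n = 6). With 0 surrogate variables the fold change was 0.10 and with 4 it had the opposite sign, so no direction is given for this gene. In WT hippocampus Bnip3l (0.11, SE 0.0358, adjusted p = 0.643) and Atg16l1 (0.12, SE 0.0489, adjusted p = 0.721) had the lowest p. The mean CPM of Bnip3l was 155 ± 7.78 on SD and 154 ± 10.3 on HFD (SD, n = 6 each), and that of Atg16l1 44.6 ± 1.23 and 47.8 ± 2.05. In TG brainstem Atg10 was at 14.5 ± 2.35 CPM on SD and 11.8 ± 1.35 on HFD (SD, n = 6 each; -0.26, SE 0.101, adjusted p = 0.587), and without TG-SD replicate 6 its fold change was -0.15. Rb1cc1, the scaffold FIP200 of the ULK1 complex, was at -0.10 (SE 0.0415, adjusted p = 0.594). In TG hippocampus Ambra1 (0.09, SE 0.0416) and Pik3r4 had the lowest p, each with an adjusted p of 0.684. Ambra1 was at 0.06 without TG-HFD replicate 5.

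**Figure D5:**
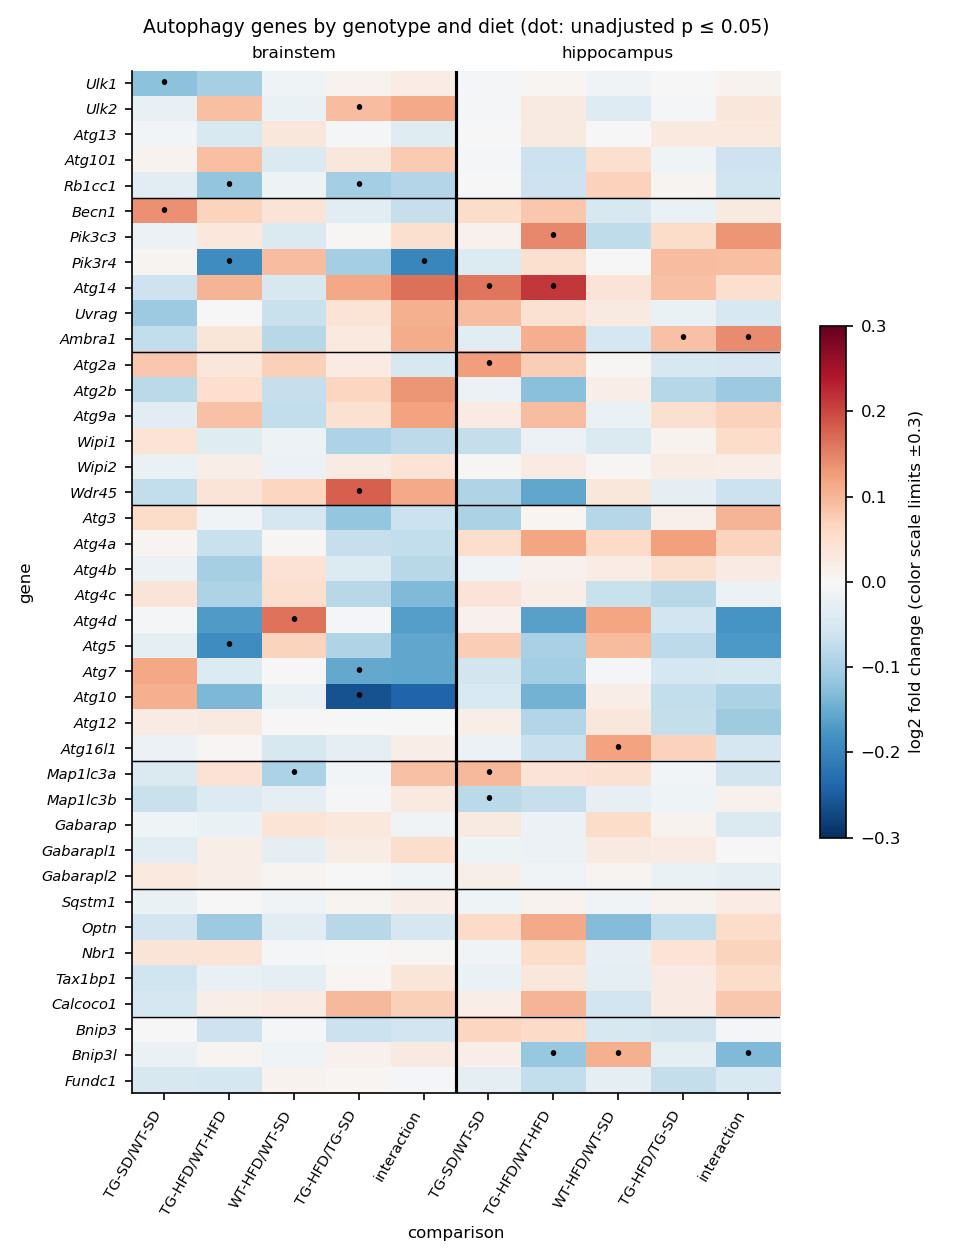
Log2 fold changes of the 40 genes (rows, grouped by role) in the 5 comparisons of each region (columns), on a colour scale of ±0.3, with a dot where the unadjusted p was at most 0.05. The dots number 25 of 400 and none passed adjustment. By comparison they mark 2.5% to 12.5% of members, against 4.83% to 11.3% of all genes.

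The genotype by diet interaction, the fold change of genotype on HFD minus that on SD, called 0 members in brainstem (all genes 0.0075%) and 0 in hippocampus (all genes 0%). In brainstem 1 member had an unadjusted p of at most 0.05 (all genes 4.83%), Pik3r4 (-0.19, SE 0.0777, adjusted p = 0.993), and in hippocampus 2 had (all genes 5.98%), Bnip3l (-0.13, SE 0.0477, adjusted p = 0.684) and Ambra1 (0.14, SE 0.0659, adjusted p = 0.814). DESeq2 called 0 members (all genes 0.0075% and 0%) and gave 1 and 2 at that p (all genes 3.35% and 4.45%). These values depended on the surrogate variables. With 0 of them Pik3r4 was at -0.037 (unadjusted p = 0.721, edgeR), Bnip3l at -0.017 (0.821) and Ambra1 at 0.101 (0.152). Over the 10 comparisons within regions, 25 of 400 member tests had an unadjusted p of at most 0.05. By comparison this was 2.5% to 12.5% of members, against 4.83% to 11.3% of all genes. Of the 25, 7 kept the sign and that p with 0 surrogate variables, and 3 took the opposite sign. The 3 were Rb1cc1 (TG-HFD over WT-HFD) and Map1lc3a in brainstem and Bnip3l (TG-HFD over WT-HFD) in hippocampus. No share over all genes is given for the 7 and the 3.

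Whether an effect of genotype or diet differed between the regions was tested in 1 model over both. No member was called for the effect of genotype on SD (all genes 0.00715%) or on HFD (all genes 0.00715%), nor for that of HFD in WT (all genes 0%) or TG mice (all genes 0%). The members with an unadjusted p no higher than 0.05 numbered 1, 0, 0 and 0 by edgeR (all genes 2.77%, 5.5%, 2.34% and 3.35%) and 1, 1, 0 and 0 by DESeq2 (all genes 2.77%, 6.02%, 2.33% and 3.54%). The 1 by edgeR was Uvrag, whose genotype effect on SD was higher in hippocampus than in brainstem by 0.21 on the log2 scale (SE 0.093, adjusted p = 1).

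Another 100 genes around the machinery were examined. They covered further ATG genes, the mTORC1, AMPK and TSC regulators, transcription factors, fusion genes and other selective receptors. Of the 95 tested in brainstem and 94 in hippocampus, 0 were called in any comparison of genotype or diet, by edgeR or DESeq2, and between 3 and 10 per comparison reached an unadjusted p of 0.05 by edgeR within a region (3.19% to 10.5%, against 4.83% to 11.3% of all genes). Between regions 22 of 95 were higher in hippocampus (23.2%, against 29.8% of all genes) and 31 lower (32.6%, against 31.6%). The counts of the lists are read against the same shares of all genes. Among the mTORC1, AMPK and TSC genes, which set when autophagy starts, 10 of 32 were higher and 8 lower, from Prkag2, an AMPK subunit (1.21, SE 0.0268), to Deptor, an mTOR inhibitor (-1.72, SE 0.0592). Of 11 transcription factor genes tested, Foxo1 was higher (1.72, SE 0.046) and 4 were lower, with Mitf the lowest (-1.08, SE 0.0516). Further ATG and autophagosome genes gave 3 higher and 8 lower of 19, from Tecpr2, which binds ATG8 proteins, at 1.06 (SE 0.0358) to Trp53inp2, which also does, at -1.34 (SE 0.0305). Among fusion genes 3 were higher and 5 lower of 17, with Plekhm1, an adaptor of the late endosome, highest (0.61, SE 0.0507) and Lamp1 of the lysosomal membrane lowest (-0.95, SE 0.0264). Other selective receptors and mitophagy genes gave 5 higher and 6 lower of 16, with Wdr81 at 0.74 (SE 0.0682) and Retreg1, a receptor for the endoplasmic reticulum, at -0.89 (SE 0.0256). The median log2 fold change over the 95 genes was -0.09, over the 40 members -0.08 and over all genes -0.02.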

How the data were processed

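The libraries, 23 of brainstem and 24 of hippocampus, were poly(A)-selected and read as 75 bp single ends. Per the labels and the study's methods, the authors aligned reads with STAR 2.7.9a to a custom genome built on that of Ensembl mouse, and deposited raw read counts per gene for each region. The way of assigning reads to genes is not given in the sources used here, so genes with near-identical copies or antisense partners are uncertain. Samples were grouped by their labels, and replicates are separate mice. The level of the transgene is not reported here.

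Here, R 4.3.3 with edgeR 4.0.16, sva 3.50.0, limma 3.58.1 and DESeq2 1.42.0 was used. The test took genes whose mean count in a region reached 50 (13340 and 13272) and, after TMM normalization, used edgeR's quasi-likelihood test, with the 4 groups and 4 surrogate variables in each region's model. How many surrogate variables to use was set by sva's permutation method (20 permutations). The regions were compared in 1 model of 8 groups without surrogate variables, over genes passing the filter in either region (13993). P-values were adjusted by Benjamini-Hochberg over all tested genes of a comparison, and intervals are at 95%. CPM used total counts times TMM factors over all 47 libraries. RPKM divided CPM by the union of exons in GENCODE M21 (GRCm38), which covers more than any single transcript. That annotation also gave symbols and GC content. The reads were aligned to another build, so coordinates are given only for the promoter windows, from RefSeq on GRCm38.p6. At the depth of these libraries (10020784 to 17328447 counts), counting error is largest for Atg4a.

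The members and lists were chosen with earlier results of these data known. Members were named by a rule: for each comparison within a region the 2 with the lowest p, between regions the 5 highest and 5 lowest, and 21 for their role. Of the other pathway genes, the highest and lowest of each list between regions were named. Other members were named after their values were seen, to complete each role. Alternatives were RLE normalization, DESeq2, other count filters, 0 or 2 surrogate variables, a GC correction, a block on the replicate number, a model of only the groups compared, other fold thresholds, and leaving out each library. Within a region, the GC correction and the model of only the groups compared used 0 surrogate variables.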

Additional observations from a re-analysis of the deposited data

Results flagged for a closer look

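Single libraries were compared with the rest of their group for the 32 members named by the rule or for their role, in all 8 groups. Of 256 sets of a gene and a group with 5 or 6 mice, 11 (4.3%) held a library whose gap to its nearest neighbour exceeded Dixon's 95% critical value, where chance gives about 1 in 20. Brainstem TG-HFD replicate 3 held 4 of the 11. In it Map1lc3b was 243 CPM against 285 to 291 in the others of its group, Atg4d 10 CPM against 16.2 to 17.6, Wipi2 89 CPM against 93.2 to 94.3 and Tax1bp1 193 CPM against 170 to 175. The oligodendrocyte markers of this library summed to 12012.7 CPM, the lowest of the 23 brainstem libraries, with 14180.0 CPM in the next. Their part in these 4 values was not tested. Also in brainstem, Map1lc3b was 349 CPM in WT-HFD replicate 1 against 289 to 312 in the others. Atg101 was 15.8 CPM in WT-HFD replicate 3 against 13 to 13.4. Pik3r4 was 35.7 CPM in TG-HFD replicate 8 against 28.9 to 31. In hippocampus, Ambra1 was 63.4 CPM in TG-HFD replicate 5 against 55.3 to 57.8, and 50.7 CPM in WT-SD replicate 6 against 56.5 to 59.7. Fundc1 was 42.2 CPM in TG-HFD replicate 4 against 35.4 to 36.6. Sqstm1 was 335 CPM in WT-SD replicate 6 against 348 to 356, the same library as the lower value of Ambra1. The 11 values came from 7 libraries, and each stayed on its own region's side for Fundc1, Map1lc3b and Atg101.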

How the results depend on the processing

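The number of called members within regions stayed at 0 under every alternative except in hippocampus for TG-HFD over WT-HFD. There it was 2 with 0 surrogate variables (3.88% of all genes), with 2 surrogate variables, and with only the groups compared. The fit of only the groups compared also had 0 surrogate variables, so it does not show the effect of leaving out groups alone. For it and for 2 surrogate variables the share of all genes is not given. Between regions, 22 members were called, against 61.3% of all genes. The number was 37 with no fold threshold and 2 with a fold threshold of 1 (all genes 19.9%). The share of all genes is not given for the 37. At an unadjusted p of at most 0.05 by edgeR there were 38 members, against 87.5% of all genes. Between 21 and 22 were called when each library was left out, Tax1bp1 being the one lost. Under the other alternatives all 22 kept their sign, but Becn1 and Atg10 also lost their call in some. Becn1 was not called with TG-SD or TG-HFD libraries alone. Atg10 was not called with no count filter, a GC correction or WT-HFD libraries alone. Pik3r4, Uvrag and Wipi2 were gained with no count filter, and Gabarap, Atg2a, Uvrag or Pik3r4 in fits of single groups. Of the log2 fold changes of named members, 269 kept their sign under the alternatives and 7 did not. Map1lc3a (WT-HFD over WT-SD, brainstem) was at 0.015 with no count filter, 0.095 with 0 surrogate variables and 0.10 with only the groups compared. Bnip3l in hippocampus was at 0.036, 0.034 and 0.036 (TG-HFD over WT-HFD) with 0 surrogate variables, 2 surrogate variables and only the groups compared, and at -0.007 (WT-HFD over WT-SD) in the last of these. The cause was not tested. All 940 fold changes with 1 library left out kept their sign, and 4 of the 30 named ones, none of them called, moved by over 1.5 times: Atg10 (TG-HFD over TG-SD) and Ulk2 (interaction, from 0.11 to 0.054 without WT-SD replicate 6) in brainstem, and Atg2a (TG-SD over WT-SD) and Ambra1 (TG-HFD over TG-SD) in hippocampus. Deviations from the group mean were correlated between regions for libraries of the same genotype and diet. With the same number, correlations ran from -0.0787 to 0.534 over 17 pairs (median 0.0873, 8 over 0.1). With different numbers the median was -0.0229 over 121 pairs, 27 of them over 0.1. Of 17 hippocampus libraries, 6 correlated best with their own number. These values do not settle whether a number marks a shared mouse. In comparisons over both regions, the replicate block kept only the 17 pairs of libraries with the same genotype, diet and number. With it 22 members were called between regions and 0 in every other comparison, so it changed no call. Depth limits Atg4a most, with 53 counts on average in hippocampus.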
